A study of Mus musculus with 96 samples.

Results

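The major urinary protein (Mup) genes described here are the 7 members Mup1, Mup2, Mup3, Mup7, Mup10, Mup20 and Mup21, taken by gene symbol from the expression table of a mouse diet study. They are 7 of 23 rows of that table with a Mup symbol, and the table holds 20155 genes with expression values. The animals were C57BL/6N male mice, bought at 4 weeks of age and given either a chow diet with 13.5% fat (CD) or a high-fat diet with 60% fat (HFD). Liver and pancreatic islets were taken after 4, 8, 12, 16, 20 or 24 weeks of diet, with 4 mice per diet and week, so that the 48 mice gave 48 liver and 48 islet libraries. No group carried a genetic change, all mice were male, and each week was sampled from different mice, so the week of diet cannot be told apart from age or from the handling of that week's libraries.

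Major urinary proteins are small secreted lipocalins, barrel-shaped carriers with a pocket for small hydrophobic molecules. In mice they are made mainly by hepatocytes, pass from blood to urine and there hold and slowly release volatile pheromones. Their liver transcription is higher in males and is driven by the pulsatile male pattern of growth hormone through STAT5b, with further input from androgens, glucocorticoids and thyroid hormone. Mup20 encodes darcin, a male pheromone protein that attracts females and carries learned scent marks.

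Expression was given as FPKM, the fragments of a transcript corrected for its length and for the library total. It is a level per length, so members can be compared with each other. Read depth per library was not given with these values, so no counting interval could be attached to them. The FPKM of a liver library summed to between 560016 and 672369, and the 7 members together made up 1.29% to 10.7% of that total. Albumin (Alb), the main hepatocyte secretory product, stood at 16734 to 46057 FPKM in the liver libraries, and pancreatic acinar markers summed to at most 69.6 FPKM there. Insulin (Ins2), a beta cell transcript, was nevertheless above 100 FPKM in 5 liver libraries, namely CD304, CD306, CD403, CD407 and HFD617, so results were also computed without those 5. The samples were whole tissue, where fewer cells of a type and less RNA per cell cannot be told apart.

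All 7 members lie on the minus strand of chromosome 4 (GRCm38), inside 2.084 Mb from 60066469 to 62150841. The order along the chromosome is Mup7 (chr4:60066469-60070481), Mup2 (chr4:60135913-60160437), Mup1 (chr4:60498012-60582155), Mup10 (chr4:60578260-60582155), Mup20 (chr4:61873842-62054143), Mup3 (chr4:62083476-62087312) and Mup21 (chr4:62147832-62150841), each given with the span of the gene model behind the deposited row. The model used for Mup1 runs across the whole of Mup10 because 3 of its 6 transcripts were added by the study's own transcript assembly. The start of each coding sequence is shown because it displays how alike the members are. The sequences are exonic, from the principal transcripts of GENCODE M21 on GRCm38, are read 5′ to 3′ on the coding strand, and cover the region matching coding positions 1 to 60 of Mup1. Capitals mark bases that differ from Mup1 or are inserted relative to it.
Mup1: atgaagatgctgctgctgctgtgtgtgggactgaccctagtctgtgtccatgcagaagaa
Mup2: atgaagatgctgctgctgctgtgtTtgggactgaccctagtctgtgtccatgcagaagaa
Mup7: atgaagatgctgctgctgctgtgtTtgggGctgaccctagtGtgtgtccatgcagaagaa
Mup10: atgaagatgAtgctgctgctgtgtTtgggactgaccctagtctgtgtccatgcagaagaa
Mup20: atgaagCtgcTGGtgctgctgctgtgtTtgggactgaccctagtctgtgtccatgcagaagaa
Mup3: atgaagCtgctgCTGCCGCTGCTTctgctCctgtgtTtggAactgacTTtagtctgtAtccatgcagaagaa
Mup21: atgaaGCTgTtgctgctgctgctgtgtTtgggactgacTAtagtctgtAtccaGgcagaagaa

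The printed stretches lie at chr4:60501790-60501849 for Mup1, chr4:60139727-60139786 for Mup2, chr4:60070241-60070300 for Mup7, chr4:60582029-60582088 for Mup10, chr4:62053987-62054049 for Mup20, chr4:62087160-62087231 for Mup3 and chr4:62150690-62150752 for Mup21. Mup7 differs from Mup1 there at 3 coding positions (G25T, A30G and C42G, counted from 1 at the first base of the start codon, with the Mup1 base first). Over the whole coding sequence Mup1, Mup2, Mup7 and Mup10 are each 543 bases long and differ from one another at only 3 to 7 bases, an identity of 98.7% to 99.4%. Mup20 (546 bases) is 90.1% to 90.8% identical to those 4 genes. Mup3 (555 bases) and Mup21 (546 bases) are 94.8% identical to each other and 82.4% to 88.0% identical to the other members.

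This likeness bears on every value below. When each coding sequence was divided into all its windows of 50 bases, the share found in no other annotated Mup gene was 5.06% for Mup1, 0 for Mup2, 6.48% for Mup7 and 2.02% for Mup10. That share was 15.1% for Mup20, 74.3% for Mup3 and 75.7% for Mup21. The quantification assigned reads that match several transcripts by estimation, so the levels of Mup1, Mup2, Mup7 and Mup10 are uncertain as single genes, those of Mup20 less so, and Mup3 and Mup21 rest mostly on sequence of their own.

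The stretch before the transcription start was examined because the members differed in their response to diet. RefSeq start sites (GRCm38.p6) were at hand for 5 of the 7 members. The 150 bases before the start are printed for the 4 of them that hold a shared run of 15 bases there in full. Bases are given on the strand of the gene, with the run in capitals.
Mup2: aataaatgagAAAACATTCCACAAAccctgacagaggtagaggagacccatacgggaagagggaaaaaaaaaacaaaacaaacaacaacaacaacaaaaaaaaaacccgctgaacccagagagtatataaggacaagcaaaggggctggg
Mup10: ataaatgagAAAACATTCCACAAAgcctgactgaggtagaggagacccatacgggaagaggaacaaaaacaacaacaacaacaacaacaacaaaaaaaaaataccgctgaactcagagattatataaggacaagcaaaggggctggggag
Mup3: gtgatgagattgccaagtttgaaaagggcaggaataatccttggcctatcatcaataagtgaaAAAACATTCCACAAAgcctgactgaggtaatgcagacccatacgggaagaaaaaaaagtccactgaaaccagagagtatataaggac
Mup21: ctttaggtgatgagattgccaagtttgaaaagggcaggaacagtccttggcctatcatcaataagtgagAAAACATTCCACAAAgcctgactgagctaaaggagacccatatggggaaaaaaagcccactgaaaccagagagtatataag

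These stretches lie at chr4:60139857-60140006 (Mup2), chr4:60582156-60582305 (Mup10), chr4:62087318-62087467 (Mup3) and chr4:62150842-62150991 (Mup21). The run AAAACATTCCACAAA was held by 11 of 32851 promoter windows (0.0335%), and all 11 belong to Mup genes. In Mup7 the annotated start lies further upstream, inside the run, so that only the first part of the run, AAAACA, comes before the start. The spelled motifs TTCNNNGAA (the STAT site), ACANNNTGT (paired steroid receptor sites) and TATAAA, searched on both strands of the 250 bases before the start, were in 0 of the 5 members' windows, and in 7.02%, 5.84% and 12.4% of all windows. The printed windows each hold TATATAAG toward their 3′ end, which the spelling TATAAA does not match, so its absence is no sign that such an element is lacking. A letter match of this kind is a description of the window and not a binding site.

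In CD livers the 7 members covered more than 3 orders of size in length-corrected level. Mup7 had the highest median, 13530 FPKM (range 4610 to 39099, n = 24 mice over all weeks). Mup3 followed with 8236 FPKM (5154 to 12609) and Mup20 with 7602 FPKM (4031 to 13382). Mup1 had a median of 3237 FPKM (1072 to 8664), Mup2 of 578 FPKM (115 to 1412), Mup21 of 174 FPKM (62.9 to 380) and Mup10 of 9.76 FPKM (1.29 to 4196). Ranges of neighbours in this order overlapped throughout, and those of Mup3 and Mup20 almost coincided. In HFD livers Mup20 came first with a median of 8289 FPKM (4110 to 18039), ahead of Mup3 with 4537 FPKM (2193 to 11271) and Mup7 with 2550 FPKM (73.7 to 23572). Mup7 thus moved from the first to the third place in the order of medians.

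**Figure D1:**
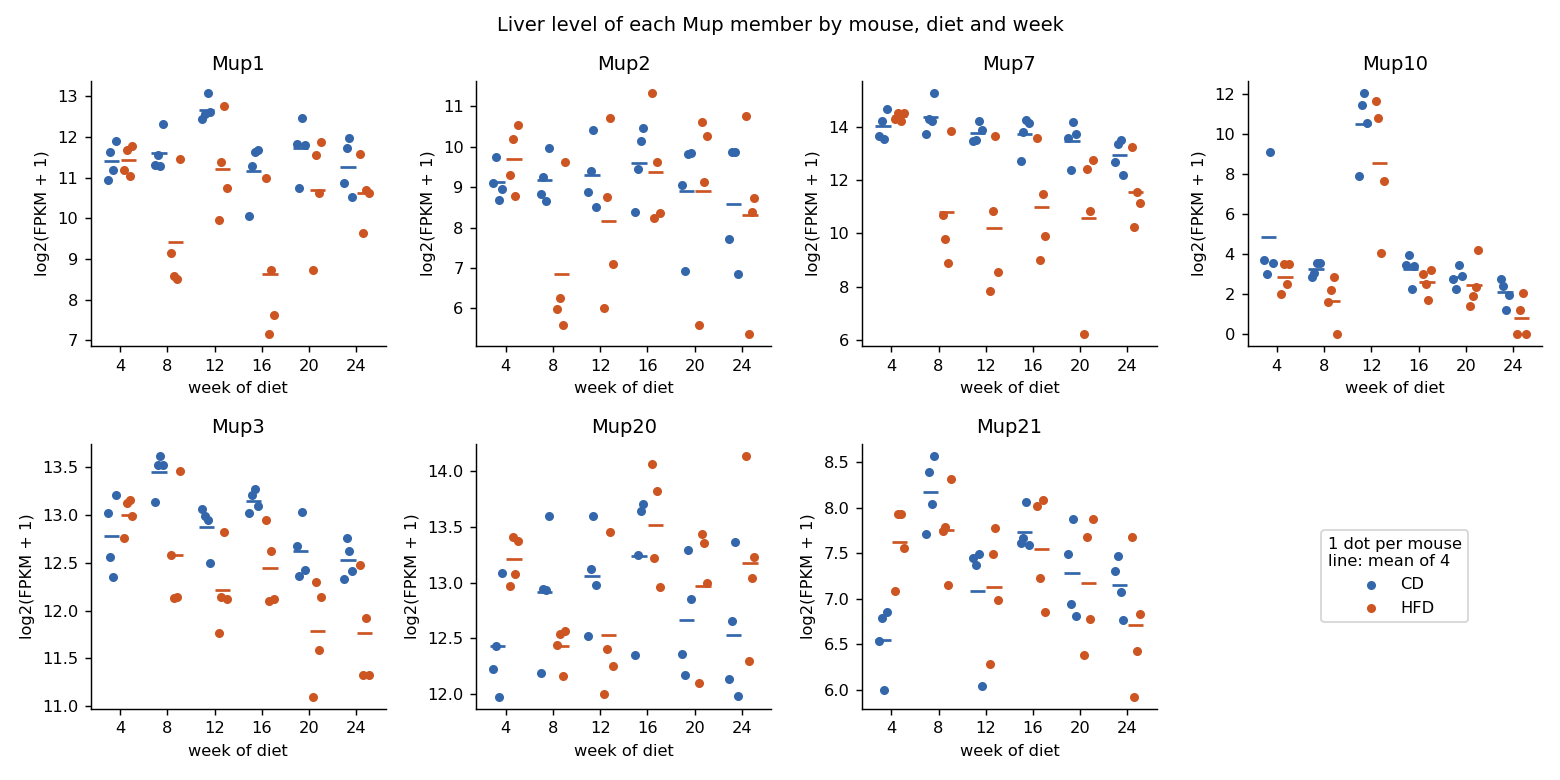
Liver level of each member, as log2(FPKM + 1) on the vertical axis with a scale of its own in each panel, against the week of diet, with 1 dot per mouse (CD blue, HFD orange) and a line at the mean of the 4 mice. From week 8 on most HFD mice lie below the CD mice for Mup7, whereas Mup20 and Mup21 overlap between diets. A single HFD mouse is in the CD range of Mup7 at weeks 8 (14531 FPKM), 12 (12693 FPKM), 16 (12148 FPKM) and 24 (9656 FPKM). At week 20 HFD516 (5473 FPKM) and HFD518 (6906 FPKM) are in it.

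The question at each week was which members differed between HFD and CD livers. Mup7, the most abundant member on chow, had lower means on HFD at every week from 8 to 24, by a factor of 2.05 to 5.21 in mean FPKM, yet no single week passed the test across all genes. Mup3 was lower by a factor of 1.55 to 1.73 over the same weeks, and its difference at week 16 passed. The test was limma on log2(FPKM + 1) with Benjamini-Hochberg adjustment over all genes tested, and a difference was called at an adjusted p under 0.05. At week 4, 0 of the 7 members were called, beside 0.0506% of 9875 genes tested. Week 8 gave 0 of 7, where 7.49% of all genes were called, and week 12 gave 0 of 7, where 10.6% were. Mup3 was the 1 member of 7 called in week 16 (7.43% of all genes), and weeks 20 (2.47%) and 24 (0.837%) gave 0 of 7. Unadjusted p was under 0.05 for 2 of 7 members in week 4 (Mup20 and Mup21, both higher on HFD), beside 9.43% of all genes in that direction. In the later weeks all members past that value were lower on HFD. They numbered 5 of 7 in week 8 (6.36% of all genes in that direction), 3 in week 12 (5.21%), 3 in week 16 (3.53%), 1 in week 20 (4.07%) and 3 in week 24 (3.31%).

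At week 4 the 4 CD livers held 12938, 19084, 11992 and 26020 FPKM of Mup7 and the 4 HFD livers 19747, 23554, 18988 and 23572 FPKM. The HFD values lay within the CD range, with a log2 difference of 0.36 ± 0.24 (SE; limma, adjusted p = 0.541). At week 8 CD livers held 13458, 20018, 18739 and 39099 FPKM, against 1649, 886, 474 and 14531 FPKM on HFD. Mouse HFD217 alone reached the CD range, while the other 3 HFD mice lay far below the lowest CD mouse. At week 12 the CD values were 11226, 11504, 18950 and 15175 FPKM and the HFD values 229, 1828, 12693 and 369 FPKM, where HFD316 was again alone within the CD range. At week 16 the CD values were 6699, 14088, 19343 and 17829 FPKM and the HFD values 12148, 515, 2875 and 951 FPKM, with HFD411 as the high mouse. Weeks 8, 12 and 16 therefore had the same make-up of 3 low mice and 1 mouse at the chow level. At week 20 CD livers held 12323, 5316, 18209 and 13602 FPKM and HFD livers 73.7, 5473, 1831 and 6906 FPKM, and at week 24 CD livers held 6592, 10383, 11436 and 4610 FPKM and HFD livers 9656, 1211, 2985 and 2226 FPKM. HFD516 and HFD518 were within the CD range at week 20, and HFD611 alone was at week 24.

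The week 8 log2 difference of Mup7 was -3.56 ± 0.98 (SE, limma, adjusted p = 0.0702). It was close to that in week 12, with -3.55 ± 1.22 (adjusted p = 0.106), and smaller in week 16, with -2.72 ± 0.98 (adjusted p = 0.156). Week 20 gave -2.90 ± 1.42 (adjusted p = 0.401) and week 24 gave -1.38 ± 0.58 (adjusted p = 0.298). Single mice decided these calls. With HFD217 left out, the week 8 difference became -4.57 (adjusted p = 0.00173) and 4 members were called, namely Mup1, Mup2, Mup3 and Mup7. Without HFD316, 3 members were called at week 12 (Mup1, Mup3 and Mup7, the last at -4.69), without HFD411, 3 were called at week 16 (the same symbols, Mup7 at -3.58), and without HFD611, 2 were called at week 24 (Mup3 and Mup7, the latter at -1.95). Each liver of a week was left out in turn, and these were the ones whose absence added calls. The share of all genes called in those fits was not computed. Whether calls rose over the whole table as well therefore cannot be said.

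Mup1, whose row spans Mup10, followed the same mice. It was at 2535, 3004, 2490 and 5109 FPKM in the CD livers of week 8 and at 567, 384, 361 and 2800 FPKM in the HFD livers, again with HFD217 inside the CD range. Week 4 gave a log2 difference of 0.01 ± 0.25 (SE, limma, adjusted p = 0.991). The differences were largest in week 16, with -2.54 ± 0.86 (adjusted p = 0.139), and in week 8, with -2.19 ± 0.64 (adjusted p = 0.0845). Smaller ones followed in week 12 (-1.47 ± 0.55, adjusted p = 0.122), week 20 (-1.03 ± 0.71, adjusted p = 0.571) and week 24 (-0.64 ± 0.43, adjusted p = 0.536). Mup2, for which no coding window was its own, ranged from 40.1 to 2573 FPKM among the HFD mice. At week 8 its CD livers held 455, 604, 402.8 and 998 FPKM and its HFD livers 61.8, 75.2, 46.8 and 786 FPKM. Its weekly differences ran from -2.32 ± 0.85 (week 8, adjusted p = 0.156, limma) to 0.59 ± 0.38 (week 4, adjusted p = 0.529), and from week 16 on they were within -0.27 and -0.01.

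Mup10 behaved unlike its near-identical neighbours. Outside week 12 it stayed at 0 to 17.2 FPKM in all livers but one, CD104 at week 4 with 536 FPKM. At week 12 it stood at 237, 2768, 4196 and 1509 FPKM in CD livers and at 3245, 1798, 15.6 and 199 FPKM in HFD livers. The levels of week 12 were thus above those of nearly every other liver on both diets, and the diets overlapped (log2 difference -1.94 ± 1.81, adjusted p = 0.503). Week 12 was also the week with the highest Mup1 mean in CD livers, 6620 ± 1385 FPKM (SD, n = 4), against 2502 to 3662 FPKM at the other weeks. How far these rows exchange reads was not tested.

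Mup3, a member with mostly unshared sequence, gave the steadiest difference. At week 4 its means were 7260 ± 1974 FPKM on CD and 8277 ± 989 FPKM on HFD (SD, n = 4), a log2 difference of 0.22 ± 0.20 (SE, adjusted p = 0.637, limma). At week 8 CD livers held 9047, 11763, 12609 and 11834 FPKM and HFD livers 6154, 4490, 4535 and 11271 FPKM, so that HFD217 was once more the mouse in the CD range. At week 16 CD livers held 8348, 9459, 9941 and 8763 FPKM and HFD livers 7918, 4391, 6313 and 4475 FPKM. All 4 HFD mice were below all 4 CD mice, with a log2 difference of -0.70 ± 0.18 (SE, limma, adjusted p = 0.0467), while 0.682% of all genes were called lower at that week. That call was lost when any of 7 of the 8 livers was left out, with an adjusted p of up to 0.131, and kept only without HFD411 (-0.87, adjusted p = 0.00522). In 1 fit of all 12 groups it was also lost (adjusted p = 0.0885), and Mup1 was called in its place (adjusted p = 0.0111). The diets did not overlap at week 20 either (5274 to 8395 FPKM on CD, 2193 to 5033 FPKM on HFD), where the log2 difference was -0.84 ± 0.26 (adjusted p = 0.134). The share of all genes without overlap at weeks 16 and 20 was not computed. At weeks 8, 12 and 24 the log2 differences were -0.87 ± 0.28 (adjusted p = 0.103), -0.66 ± 0.22 (adjusted p = 0.0736) and -0.77 ± 0.25 (adjusted p = 0.185).

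Mup20, the darcin gene, did not follow this course. At week 4 its CD livers held 4798, 5530, 4031 and 8695 FPKM and its HFD livers 8050, 10871, 8637 and 10630.0 FPKM. The HFD mice were on the high side, with a log2 difference of 0.78 ± 0.23 (SE, unadjusted p = 0.00851, adjusted p = 0.233, limma). From week 8 on the differences lay between -0.53 ± 0.33 (week 12, adjusted p = 0.314) and 0.64 ± 0.40 (week 24, adjusted p = 0.491), and the ranges of the diets overlapped at every week. Mice low in Mup7 were not low in Mup20 to the same degree. HFD511 at week 20, with the lowest Mup7 of all (73.7 FPKM), held 4398 FPKM of Mup20, against 4604 to 10053 FPKM in the CD livers of that week. HFD414 at week 16 held 515 FPKM of Mup7 and 9559 FPKM of Mup20, inside the CD range of 5217 to 13382 FPKM. Mup21, a low-level member close to Mup3 in sequence, stood at 91.4, 110, 62.9 and 114.4 FPKM in the week 4 CD livers and at 134, 243, 243 and 188 FPKM on HFD. All 4 HFD mice were above all 4 CD mice, and the log2 difference of 1.08 ± 0.24 (SE) had an unadjusted p of 0.00136 and an adjusted p of 0.128 (limma). The share of all genes without overlap at week 4 was not computed. At later weeks its differences ran from -0.44 to 0.04 and the diets overlapped.

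**Figure D2:**
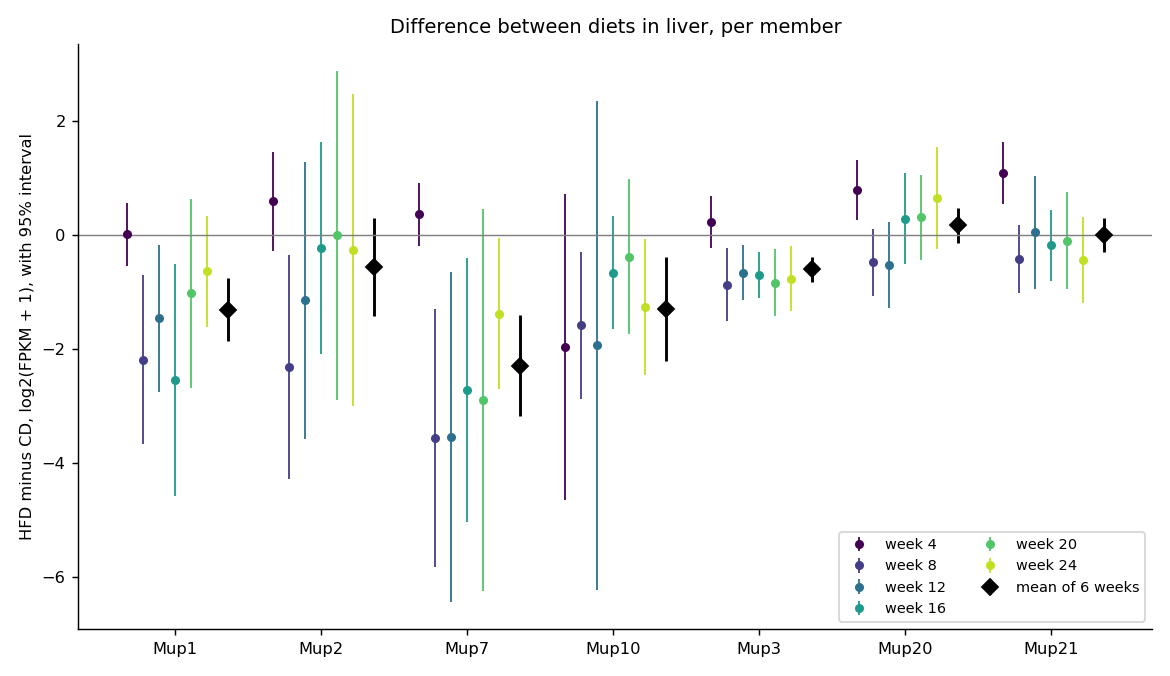
Difference between diets per member, as HFD minus CD in log2(FPKM + 1) with 95% intervals, for each week (coloured dots, 4 mice per diet) and for the mean of the 6 weeks (black diamonds, 48 livers). Week 4 lies at or above 0 for the members other than Mup10, although Mup1 (0.01) turned to -0.12 with median ratio scaling, while the mean lies below 0 with its interval for Mup7 (-2.29), Mup1 (-1.31), Mup10 (-1.30) and Mup3 (-0.61).

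With all 48 livers in 1 fit, the mean of the 6 weekly differences asked whether a member differed between diets over the whole course. Mup7 fell by 2.29 on the log2 scale, with a 95% interval from -3.18 to -1.41 (limma, adjusted p = 6.0e-05). Mup1 fell by 1.31 (-1.86 to -0.76, adjusted p = 0.000184), Mup3 fell by 0.61 (-0.82 to -0.39, adjusted p = 2.0e-05) and Mup10 fell by 1.30 (-2.21 to -0.40, adjusted p = 0.0176). Mup2 was at -0.56 (-1.43 to 0.30, adjusted p = 0.294), Mup20 at 0.17 (-0.14 to 0.47, adjusted p = 0.392) and Mup21 at -0.01 (-0.31 to 0.30, adjusted p = 0.981), and these intervals still allow changes of some size. So 4 of 7 members were called lower and 0 higher, beside 6.78% of 10879 genes called lower and 35.8% called higher, and the median difference was -0.61 over the members and 0.08 over all genes. Scaling the libraries by median ratios turned the background into 21.6% lower and 17.7% higher and its median to -0.02, and the same 4 members were called lower, Mup7 at -2.41. Leaving out any 1 liver kept 4 members called. The call of Mup10 was lost when either week 4 (adjusted p = 0.0537) or week 12 (adjusted p = 0.0600) was left out.

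The change of the diet difference over time was tested in the same fit. The mean difference of weeks 4, 8 and 12 minus that of weeks 16, 20 and 24 was called for 0 of 7 members (0.0368% of all genes were called higher, 0.138% lower; unadjusted p under 0.05 for 0 members). The F test of diet by week called 0 of 7 members (1.46% of all genes; unadjusted p under 0.05 for 0 members), with adjusted p between 0.342 (Mup3) and 0.950 (Mup10). Neither test called the difference between week 4 and the later weeks described above, and week 4 alone against the rest was not tested. Levels among the weeks within a diet were tested as well. Mup3, Mup10 and Mup21 were called within CD (3 of 7, beside 55% of all genes), and Mup1, Mup3, Mup7 and Mup10 within HFD (4 of 7, beside 50.2%). Both counts are near the share of all genes, so they are no result about the members. Mup3 in CD livers was highest at week 8 with 11313 ± 1560 FPKM and lowest at week 24 with 5963 ± 807 FPKM (SD, n = 4), and Mup7 in HFD livers was highest at week 4 with 21465 ± 2442 FPKM and lowest at week 20 with 3571 ± 3162 FPKM.

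Ratios within a library do not depend on how libraries were scaled, and the ratio of Mup7 to Mup20 separated the diets at more weeks than the Mup7 level, which overlapped at all 6. In CD livers the ratio of Mup7 to Mup20 was between 1.08 and 3.45 with a median of 1.83, and in HFD livers between 0.0168 and 2.45 with a median of 0.317. At week 4 it was 2.70 to 3.45 on CD and 2.17 to 2.45 on HFD. At week 16 it was 1.28 to 1.52 on CD and 0.0539 to 0.709 on HFD. All 4 HFD mice were below all 4 CD mice at 5 of the 6 weeks, and at week 8 the highest HFD mouse, HFD217, equalled the lowest CD mouse at 2.40. Thus at weeks 12 and 16 even the HFD mouse with a chow-like Mup7 level had less Mup7 relative to Mup20 than any chow mouse, 1.13 against at least 1.29 at week 12 and 0.709 against at least 1.28 at week 16. Of the member pairs compared, Mup7 to Mup20 separated the diets at the most weeks. The share over pairs of all genes was not computed, so how unusual 5 of 6 weeks is cannot be said.

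**Figure D3:**
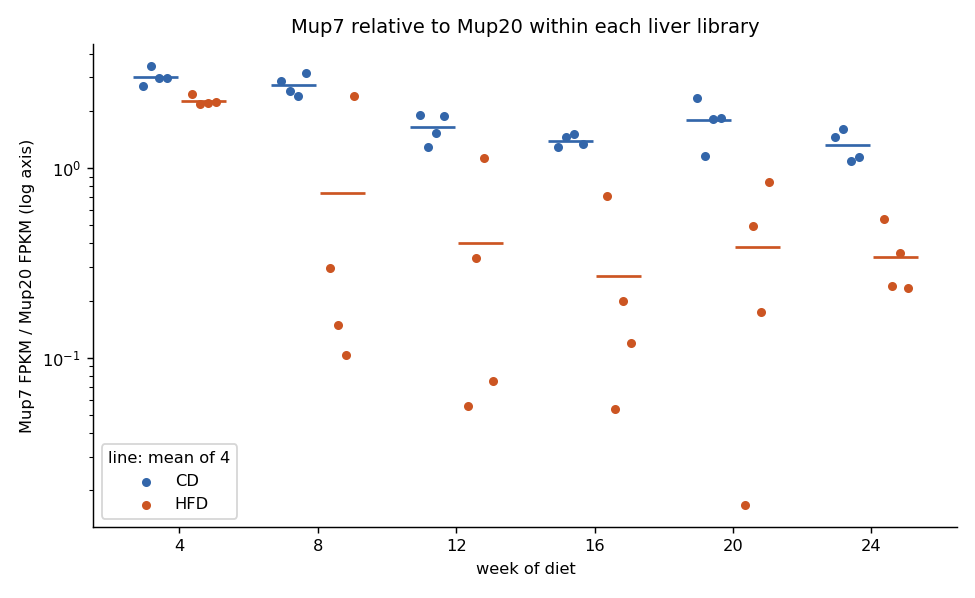
Ratio of Mup7 FPKM to Mup20 FPKM within each liver library (vertical axis, logarithmic) against the week of diet, with 1 dot per mouse (CD blue, HFD orange) and a line at the arithmetic mean of 4. CD mice stay between 1.08 and 3.45, and HFD mice lie below them at every week except week 8, where 1 HFD mouse reaches 2.40.

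Among the 15 pairs of the 6 members other than Mup10, the HFD mice were all below the CD mice at 4 of 6 weeks for Mup1 to Mup20 and for Mup3 to Mup20, and at 3 weeks for Mup1 to Mup21 and Mup7 to Mup21. The ratio of Mup2 to Mup7 was above the CD mice in all HFD mice at 4 weeks and that of Mup1 to Mup7 at 3 weeks. Mup1 to Mup3, Mup2 to Mup3, Mup2 to Mup20 and Mup2 to Mup21 overlapped at all 6 weeks. These pairs were compared after the levels had been seen and no test was made of them.

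The spread among mice of 1 diet and week separated the members as well. The SD of Mup7 on the log2 scale, as the median over the 6 weeks, was 0.63 in CD and 2.07 in HFD livers. For Mup2 it was 0.87 and 1.96, and for Mup1 0.58 and 1.29. Mup20 had 0.54 in CD and 0.56 in HFD livers, Mup21 0.39 and 0.63, and Mup3 0.24 and 0.50. Of the 747 genes averaging at least 100 FPKM in liver, 0 had a larger HFD spread than Mup7 and 1 had a larger one than Mup2, and the median of those genes was 0.17 on both diets. The difference in spread between diets was not tested. The wide HFD spread was not there at week 4, where the SD of Mup7 was 0.17 in HFD and 0.52 in CD livers.

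**Figure D4:**
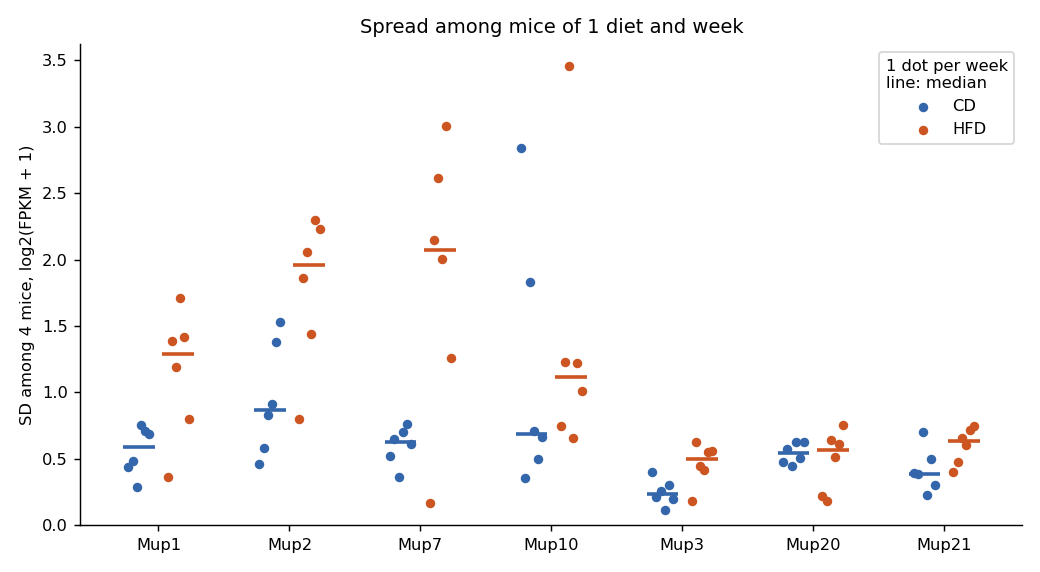
SD among the 4 mice of a diet and week, in log2(FPKM + 1), for each member, with 1 dot per week (CD blue, HFD orange) and a line at the median of 6 weeks. Mup7 and Mup2 have medians of 2.07 and 1.96 on HFD against 0.63 and 0.87 on CD, while Mup20 is alike on both diets (0.54 and 0.56).

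The mouse-to-mouse differences were shared among most members. With group means removed, log2 levels over the 48 livers correlated with r = 0.94 between Mup1 and Mup7, 0.91 between Mup1 and Mup2 and 0.89 between Mup2 and Mup7. Mup3, whose sequence is largely its own, still had r = 0.83 with Mup7 and 0.81 with Mup21, and Mup20 had 0.72 with Mup7. Mup10 was the exception, with r between -0.35 and -0.21 to the other 6. The livers share library totals with each other's members, and near-identical genes share reads, so these values describe the libraries and carry no test.

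Summed over the 7 members, the HFD livers had the lower mean at each week from 8 to 24, a description with no test. The sum does not remove the sharing of reads, either among the members or with the other Mup genes. FPKM is divided by length, and the longest transcript of a member's gene model ran from 755 bases (Mup21) to 7510 bases (Mup2). The mean sum was 34176 FPKM on CD and 43245 FPKM on HFD at week 4. At week 8 it was 46529.5 ± 16628 FPKM on CD and 18044 ± 11929 FPKM on HFD (SD, n = 4), and the 8 mice overlapped through HFD217 with 35764 FPKM. At week 24 it was 23984 FPKM on CD and 20493 FPKM on HFD, and without HFD614 the HFD mean was 24088 FPKM, so the order at that week rested on 1 mouse. All 23 Mup rows made up 7.93% of the library FPKM on CD and 7.90% on HFD at week 24. Over all weeks the members made up a median of 5.36% of the library FPKM in CD livers and 2.99% in HFD livers. All 23 Mup rows together made up 1.77% to 19.9% of a liver library.

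Outside the Mup family, the genes with the most similar pattern to each member were found among 9962 genes, over 48 livers. For Mup7 these were Hsd3b5 (r = 0.91), a male-specific ketosteroid reductase, Serpina1e (0.85), an alpha-1-antitrypsin paralog, and Cyp4a12b (0.81), a male-biased fatty acid hydroxylase. For Mup3 they were Ugt2b1 (0.84), a glucuronosyltransferase, Hsd3b5 (0.84) and Slco1a1 (0.80), an organic anion transporter. For Mup1 they were Serpina1e (0.80), Susd4 (0.75) and Tspan33 (0.74), and for Mup2 C6 (0.71), Serpina1e (0.69) and C1ra (0.63). Slco1a1 (0.77) and Slc22a28 (0.77) were nearest to Mup21. Mup20 had no such close partner in the levels as measured, its nearest being Gm21320 at 0.58, a further Mup gene under another symbol, and then C6 at 0.53. Mup10 was nearest to the ribosomal protein genes Rps27a (0.76) and Rps19 (0.73) and to Naaladl2 (0.73). With group means removed, Serpina1e (0.86) and Hsd3b5 (0.84) were still among the 3 nearest to Mup7, along with Gm21320, and Hsd3b5 was among the 3 nearest to Mup2, Mup3 and Mup21. Mup20 then had closer partners, namely Gstp1 (0.77), Capn8 (0.76) and the male-biased Cyp7b1 (0.73).

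**Figure D5:**
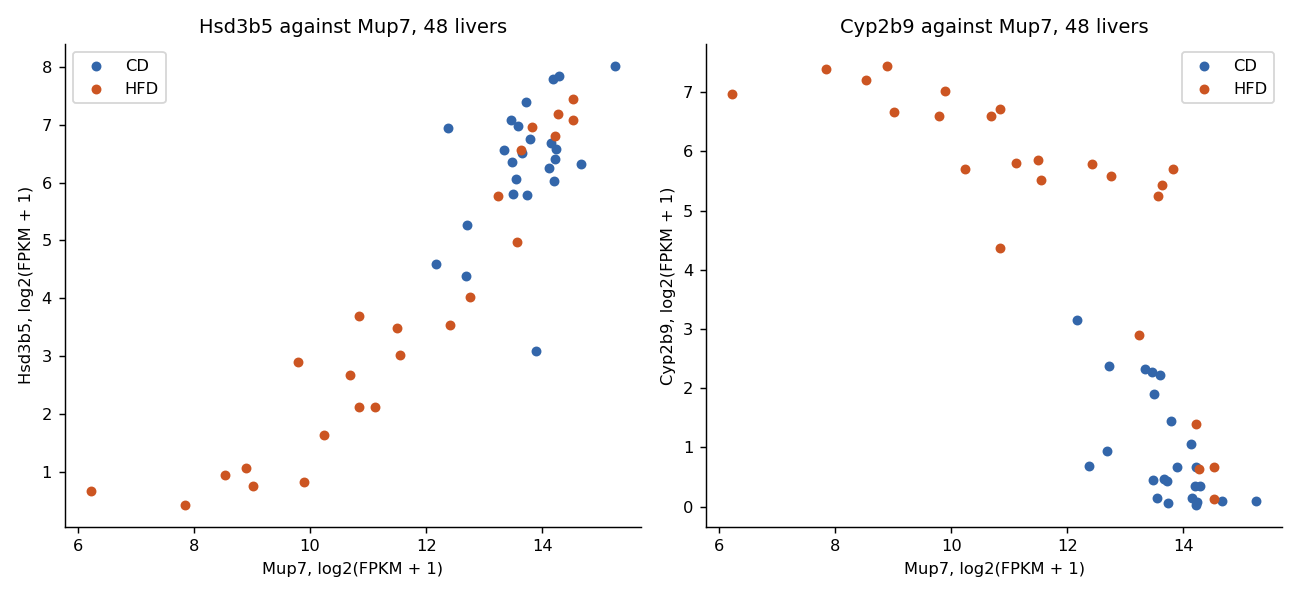
Hsd3b5 (left) and Cyp2b9 (right) against Mup7 in the 48 livers, all as log2(FPKM + 1), with 1 dot per mouse (CD blue, HFD orange). Hsd3b5, picked as the nearest to Mup7 of 9962 genes, runs with it (r = 0.91), with the HFD mice spread along the trend. Cyp2b9 reached 1 FPKM in only 29 of the 48 livers and was low on chow, so it is shown as levels only and no trend is drawn from it.

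Of 15 genes known for male-biased expression in mouse liver, all of them tested, 10 were called lower on HFD and 0 higher in the mean of 6 weeks, beside 6.78% of all genes called lower (median difference -0.70, against 0.08 over all genes). The other 5, Elovl3, Cyp4a12a, C4a, C6 and Nudt7, were not called. The list was chosen with earlier results of these data known. Hsd3b5 fell by 2.70 ± 0.44 on the log2 scale (SE, limma, adjusted p = 7.2e-06), Serpina1e by 1.77 ± 0.35 (adjusted p = 9.7e-05), Ugt2b38 by 1.32 ± 0.18 (adjusted p = 3.8e-07) and Cyp4a12b by 1.17 ± 0.25 (adjusted p = 0.000275). Mouse by mouse, Hsd3b5 at week 8 was at 167, 229, 219 and 258 FPKM in CD livers and at 5.38, 6.48, 1.09 and 123 FPKM in HFD livers, where the high mouse was again HFD217. In single weeks the calls among the 15 were all lower. They numbered 4 in week 8 (1.33% of all genes were called lower) and 1 in week 12 (1.22%). Week 16 gave 2 (0.682%), week 20 gave 4 (0.746%), and weeks 4 (0.0101%) and 24 (0.187%) gave 0.

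Of 15 genes known as female-biased in liver 8 did not pass the filter on low values, 5 were called higher, 1 was called lower and Acot3 was not called. Genes near 0 on chow passed only through the livers where they were high, so a rise was set by the filter for them, and no direction of the list is drawn from these counts. Cyp2b9, a female-predominant cytochrome P450, was at 0.07 to 0.35 FPKM in CD livers and at 51.3 to 173 FPKM in HFD livers at week 8, given here as levels only. At week 8 the HFD mouse with the least Cyp2b9, at 51.3 FPKM, was HFD217, the one with the most Mup7. Cyp2b13 and Cyp2a4 reached 1 FPKM in only 15 and 12 of the 48 livers. Cyp17a1 and Prlr, the prolactin receptor, reached 1 FPKM in all 48 livers. Cyp17a1 rose by 0.84 ± 0.21 on the log2 scale (SE, limma, adjusted p = 0.00161) and Prlr fell by 0.38 ± 0.12 (adjusted p = 0.0120).

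Of 16 genes of growth hormone signaling and other known Mup regulators, 15 were tested, 4 were called higher and 2 lower in the mean of 6 weeks (median 0.09), beside 35.8% of all genes called higher and 6.78% called lower, so the higher calls are no result about this list. Igf1, the main hormone made by liver under growth hormone, fell by 0.24 ± 0.05 (limma, adjusted p = 7.3e-05), and its carrier Igfals fell by 0.23 ± 0.08 (adjusted p = 0.0145). Stat5a rose by 0.46 ± 0.06 (adjusted p = 1.9e-07). Stat5b (0.13), Nr3c1 (0.14), the glucocorticoid receptor, and Thrb (0.20), a thyroid hormone receptor, were called higher as well, but with median ratio scaling or with Mup genes left out of the library total only Stat5a was still called higher, and Hnf4a, Igf1 and Igfals were called lower. The growth hormone receptor Ghr was at 0.04 ± 0.04 (adjusted p = 0.458) and its kinase Jak2 at 0.09 ± 0.05 (adjusted p = 0.160). Over the 48 livers r with Mup7 was -0.04 for Ghr and 0.25 for Igf1, against 0.91 for Hsd3b5.

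Other hepatocyte and lipocalin genes give the setting. Of 9 hepatocyte genes 4 were called lower (Cps1, Tat, Ahsg and Fgb; 6.78% of all genes were) and 0 higher, with a median of -0.10, and Alb was at -0.07 ± 0.08 (adjusted p = 0.516, limma). The 9 hepatocyte genes summed to 45554 to 83355 FPKM in CD livers and 38654 to 67741 FPKM in HFD livers. Of 10 other lipocalins 8 were tested, with Rbp4 and Lcn2 called higher and Ambp, Orm1, Ptgds and C8g lower (median -0.20), and the call of Rbp4 was lost with median ratio scaling. In the mean of 6 weeks 4 of 6 macrophage markers and 5 of 5 stellate cell markers were called higher and 0 lower, beside 35.8% of all genes. Cd68, a macrophage marker, rose by 0.93 ± 0.13 (limma, adjusted p = 2.3e-07) and Col1a1, a collagen of stellate cells, by 1.36 ± 0.20 (adjusted p = 8.4e-07). The macrophage markers summed to 22.9 to 81.4 FPKM on CD and 28.1 to 108 FPKM on HFD, and the stellate markers to 26.5 to 85.2 and 46.1 to 117 FPKM, with none of them at 0 in all livers. Their part in the Mup differences was not tested. Without the 5 livers above 100 FPKM of Ins2, a choice made after seeing the data, the mean difference of Mup7 was -2.28 and that of Mup3 -0.56, and 4 members were again called lower, while the week 16 call of Mup3 was lost.

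In islets of the same mice the members were close to 0. Their medians over 48 islet libraries were 0 to 0.155 FPKM, and each was listed at 0 in 19 or more libraries. The highest value was 16.4 FPKM of Mup7 in HFD313 at week 12, whose islet library also had the most Alb, 48.8 FPKM. Over the 48 islet libraries r with Alb was 0.98 for Mup3, 0.95 for Mup7 and 0.96 for Mup20. Mup3 and Mup7 passed the filter at week 12 and Mup3, Mup7 and Mup20 at week 16, and 0 of them were called by limma, with 0 at an unadjusted p under 0.05 (4.53% and 8.45% of all genes were called at those weeks). At week 16 Mup7 was at 2.70 ± 0.35 FPKM in CD and 2.23 ± 0.60 FPKM in HFD islets (SD, n = 4). Whether these transcripts came from islet cells was not tested.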

How the data were processed

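Poly(A) RNA from liver and islets of 48 mice was sequenced by the authors, who deposited 1 gene table with an FPKM value per gene and library, rounded to 2 decimals. The submitters' processing notes name HISAT2 2.0.4, Bowtie2 2.2.5, RSEM 1.1.12, DESeq2 and GRCm38.p5. RSEM divides reads that fit several transcripts by estimated abundance. The table's columns with the authors' own comparisons (fold changes, p and q values) were not used.

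Groups were diet and week from the labels. Members and gene lists were chosen with earlier results of these data known. The genes named are the members, all Mup symbols, the listed genes and, per member, the 3 genes most correlated with it, as measured and after group means were subtracted. Genes reaching 1 FPKM in 4 or more libraries were tested on log2(FPKM + 1) with limma 3.58.1 in R 4.3.3 (trend and robust options, two-sided), after a test on simulated data. Adjusted p-values (Benjamini-Hochberg) run over all genes tested. They measure the spread between mice. Alternatives were a pseudocount of 0.1, no filter, median ratio scaling, Mup genes left out of the FPKM total, plain eBayes, all 12 groups in 1 fit and leaving out each library. Summing Mup1 with Mup10, leaving out livers with Ins2 over 100 FPKM and leaving out week 4 or week 12 were added after seeing the data. Sequences came from GENCODE M21 and RefSeq, handled with Biopython 1.88. Depth per library is unknown, so no counting error could be given.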

Additional observations from a re-analysis of the deposited data

Results flagged for a closer look

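Each member and the sum of the members was examined in each liver group of 4 mice for a mouse standing far from the other 3, by Dixon's ratio of the gap to the range. Of 96 groups 10 were past the critical value, which a single group passes by chance in about 5% of cases. The same mice enter again for each member and for the sum, and the members vary together. The count of 10 therefore cannot be read against that share. In 4 of the 10 the mouse was HFD217 at week 8, with 2800 FPKM of Mup1 (next 567), 786 FPKM of Mup2 (next 75.2), 14531 FPKM of Mup7 (next 1649) and 35764 FPKM summed over the members (next 14219). At week 12 it was HFD316 with 12693 FPKM of Mup7 (next 1828), and at week 16 HFD411 with 2035 FPKM of Mup1 (next 423). Mup10 stood apart in CD104 at week 4 with 536 FPKM (next 12.1) and in HFD518 at week 20 with 17.2 FPKM (next 4.05). Mup21 stood apart in CD308 at week 12, the lowest with 64.6 FPKM (next 165), and in CD405 at week 16, the highest with 267 FPKM (next 202.5).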

How the results depend on the processing

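The 4 members called lower in the mean of 6 weeks (Mup1, Mup3, Mup7 and Mup10) were also 4 with the other pseudocount, no filter, both other scalings, plain eBayes and without livers rich in Ins2, and 3 with Mup1 and Mup10 summed or with week 4 or week 12 left out, and the counts for early against late weeks, for diet by week and for weeks within a diet stayed within 1.5 times. At single weeks, 1 fit of all 12 groups called 3 members at week 8, 1 at week 12 and 1 at week 20, against 0 in the fits of each week alone. In that fit 5.59% of all genes were called higher and 1.41% lower at week 8. These shares were 13.4% and 1.55% at week 12. At week 20 they were 7.43% and 1.8%, against 1.73% and 0.746% in the fit of that week alone, so calls rose over the whole table too. The 1 call at week 16 became 0 with no filter, with Mup genes left out of the FPKM total, or without livers over 100 FPKM of Ins2. Median ratio scaling split the week 12 calls into 5.44% higher and 5.59% lower genes, against 9.42% and 1.22%. It turned Mup1 at week 4 to -0.12 and Mup21 at week 12 to -0.12. Leaving Mup genes out of the total turned Mup21 at week 12 to -0.041, and summing Mup1 with Mup10 turned Mup1 at week 4 to -0.068. Without the livers rich in Ins2, Mup2 at week 16 became 0.12, the mean of Mup21 0.025 and early minus late for Mup7 -0.14. Why these moved was not tested.

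With each liver left out in turn, the members called numbered 0 to 4 at week 8, 0 to 3 at weeks 12 and 16 and 0 to 2 at week 24. For these fits the share of all genes called was not computed. Signs turned in small differences: Mup1 at week 4 ranged from -0.15 to 0.17, Mup2 from -0.87 to 0.16 at week 16, from -0.68 to 1.09 at week 20 and from -1.08 to 0.72 at week 24, Mup20 at week 16 from -0.014 to 0.47, and Mup21 from -0.31 to 0.33 at week 12, from -0.37 to 0.045 at week 16, from -0.33 to 0.16 at week 20 and from -0.064 to 0.042 in the mean. Early minus late ranged from -0.038 to 0.45 for Mup1 and from -0.40 to 0.37 for Mup7. No paired analysis was possible because CD and HFD mice share no identifier numbers. Each week rests on 4 mice per group, and depth is unknown.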

Other observations

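The other 16 Mup rows of the table were tested as well. In the mean of 6 weeks 4 of the 16 were called lower on HFD, beside 6.78% of all genes, and 2 higher, beside 35.8% of all genes, with a median difference of -0.23. Mup12 fell by 2.39 ± 0.35 on the log2 scale (SE, limma, adjusted p = 1.0e-06), from a median of 745 FPKM in CD to 139 FPKM in HFD livers. Mup14 fell by 1.53 ± 0.37 (adjusted p = 0.000993) and Mup15 fell by 1.25 ± 0.42 (adjusted p = 0.0147). Mup11 was called lower too, with an interval from -1.87 to -0.23 (adjusted p = 0.0337). The row named Mup-ps16, a pseudogene, rose by 0.64 ± 0.13 (adjusted p = 0.000133), from a median of 41.8 to 55.8 FPKM. Mup6 was called higher at medians of 0.31 and 0.49 FPKM, and that call was lost with median ratio scaling and with Mup genes left out of the FPKM total. Median ratio scaling also called Mup16 lower.

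The row Gm21320, now named Mup22, held more than any member, with a median of 16754 FPKM (7133 to 30682) over the 48 livers. Its mean difference was -0.08 (-0.27 to 0.12, adjusted p = 0.552, limma). Counting it with the 23 Mup rows, the family made up 3.05% to 24.4% of a liver library. The gene model behind the row Mup-ps12 spans chr4:332820-61538481 and overlaps 14 other Mup rows, so its values cannot be tied to 1 gene.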
